A study of Mus musculus with 4 samples.

Results

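The cells described here were 187 macrophages from injured skeletal muscle at 4 days after cardiotoxin (dpi4) that held transcripts of both *Slc40a1*, which encodes the iron exporter ferroportin, and *Vcam1*, which encodes an adhesion molecule of endothelium and of some tissue macrophages. They were chosen by their measured UMI counts (counts of distinct captured transcripts) in both dpi4 libraries. A barcode was taken if it had at least 500 detected genes, under 10% mitochondrial UMIs, at least 5 UMIs per 10000 of *C1qa*, *C1qb* and *C1qc* together, at least 5 UMIs per 10000 of *Slc40a1*, and at least 1 *Vcam1* UMI. Barcodes with 5 or more UMIs per 10000 of *Gpnmb*, with 3 or more per 10000 of the interferon-induced genes *Iigp1*, *Ifit2* and *Ifit3* together, or with UMIs of both *Mki67* and *Top2a*, which mark dividing cells, were left out. The control library gave 14 such cells and the KO library 173, out of 9721 barcodes and 6504 C1q cells at dpi4 and 20500 barcodes in the series. They are called *Slc40a1* *Vcam1* macrophages below. The levels of the genes used to choose them are given as a description only, and export of iron was not measured.

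The series held 4 libraries of CD45+ cells, enriched on magnetic beads, from cardiotoxin-injured tibialis anterior muscle of male mice aged 8 to 12 weeks: control and KO at dpi2 and at dpi4. In the study's methods the KO animals were C57BL/6 mice with floxed *Bach1* alleles (*Bach1* fl/fl) and *Lyz2*-Cre, which is active in myeloid cells, and the controls were littermates with the same floxed alleles. Each group was 1 library, so no difference between control and KO has a replicate check, and genotype, animal and library cannot be told apart. Cells of a library are not replicates, and no p-value is given. The brackets after a value hold its exact 95% interval, which covers counting error only. Levels are CPM, the UMIs of a gene per 1000000 UMIs summed over a class of cells.

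Macrophages of the splenic red pulp and of the liver take up aged red cells, break down their heme with heme oxygenase 1 (*Hmox1*), store the iron in ferritin or return it to the blood through ferroportin, and commonly carry VCAM1 and the lineage factor SPIC. BACH1 is a repressor that heme releases from DNA. At many of its sites NRF2 then binds with a small MAF protein, and *Hmox1*, *Slc40a1*, the ferritin genes and the genes of glutathione and thioredoxin metabolism are among their known targets.

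The control and KO libraries held 6602 and 4177 barcodes at dpi2 and 5207 and 4514 at dpi4, with 80228489 and 62566722 UMIs at dpi4. After the limits on genes and mitochondrial UMIs, 4323 control and 3533 KO barcodes were left at dpi4, with median counts of 15311 and 13894 UMIs. Between 2 and 14 barcodes were shared by any pair of libraries, and no barcode was a *Slc40a1* *Vcam1* macrophage in both. The *Slc40a1* *Vcam1* macrophages themselves had a median of 17451.5 UMIs in control and 13273 in KO.

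*Slc40a1* *Vcam1* macrophages made up 0.383% of C1q cells (14 of 3658, 0.209-0.641) in control and 6.08% (173 of 2846, 5.23-7.02) in KO. The step at which the libraries parted was the *Slc40a1* limit: 134 control C1q cells (3.66%) and 1286 KO cells (45.2%) reached it. A *Vcam1* UMI was held by 43 and 544 of these. The *Gpnmb* limit then removed 25 of 43 cells (58.1%) in control and 286 of 544 (52.6%) in KO, so a similar share of each library's *Slc40a1* *Vcam1* cells was left out for this lysosomal glycoprotein. The interferon limit left 14 and 176, and the cell-cycle limit 14 and 173. At dpi2 the same rule found no cell among 2252 control C1q cells, which allows a share of up to 0.133% at 3 counts (0.164% as the exact upper limit), and 4 cells among 1164 KO C1q cells (0.344%, 0.0937-0.878).

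**Figure D1:**
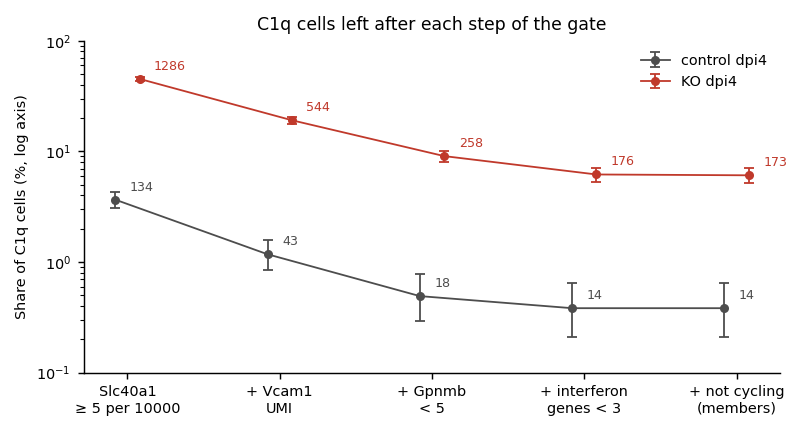
Share of C1q cells left after each step of the rule in the dpi4 libraries (log axis, percent); points are the 2 libraries, bars the 95% Clopper-Pearson intervals, and the numbers beside them the cells left. The control library lies below the KO library from the *Slc40a1* limit on (3.66% against 45.2%) and ends at 14 cells against 173.

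The limits cut through continuous values. The lowest *Slc40a1* level inside the rule was 5.62 UMIs per 10000 in control and 5.20 in KO, and the nearest cells outside it, which met all other limits, had 4.37 and 4.9975. For *Gpnmb* the highest cells inside had 4.76 and 4.998 UMIs per 10000 and the nearest outside 5.89 and 5.06. The highest sums of the 3 interferon genes inside were 1.27 and 2.998 and the nearest outside 3.17 and 3.20, and the lowest C1q sums inside were 61.7 and 14.6. A single *Vcam1* UMI was all that 5 of the 14 control and 33 of the 173 KO cells held.

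The cells were compared with the other C1q cells of their own library (1100 in control and 779 in KO, with medians of 12623 and 10613 UMIs). These met the same limits on *Gpnmb*, interferon genes and cell cycle but failed the *Slc40a1* limit, the *Vcam1* limit or both. Cells over the *Slc40a1* limit without a *Vcam1* UMI thus stayed in the comparator, 16 in control and 175 in KO. Cells with *Vcam1* alone were 129 and 120. The 2 comparators differ in make-up, so the ratios in control and KO are not set against like cells. A gene was called higher or lower if it had at least 50 UMIs in the pair, differed at least 2-fold, and had an interval that left out 1; the 11 genes of the rule were not counted. A gene with 0 UMIs on 1 side was called if its interval left out 1, so its fold may be under 2 at the floor of 3 UMIs; this held for 40 of the 247 genes called lower in control below. In control 260 of 9765 genes were higher (2.66%) and 247 lower (2.53%). In KO 95 of 9286 were higher (1.02%) and 362 lower (3.90%). The median gene in control lay at -0.115 on the log2 scale, and with ratios centred on that median 367 genes were higher and 178 lower in control, a split of 67.3% higher in place of 51.3%. In both libraries at once 21 of 9196 genes were higher (0.228%) and 74 lower (0.805%), and 7 went in opposite directions.

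*Slc40a1* (GRCm38 chr1:45908068-45926523, minus strand) stood at 1047 CPM in the control cells and 42.6 in the other C1q cells, and at 1615 and 384 in KO. *Vcam1* (chr3:116109949-116129688, minus strand) stood at 235 against 32.6 in control and 697 against 56.4 in KO. These differences are set by the rule. Macrophage markers that the rule did not use were present: *Csf1r*, the receptor for macrophage colony-stimulating factor, stood at 911 CPM in control and 953 in KO, *Adgre1*, which encodes F4/80, at 763 and 881, and *Apoe* at 27441.5 and 28128. Of 8 macrophage identity genes tested, none was called in control, and *Mertk*, a receptor for apoptotic cells, was higher than in the other C1q cells of KO (308 CPM, 2.06-fold).

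*Spic* and *Il18bp* had been listed as further markers of these cells from earlier results, and were not part of the rule. *Spic* (chr10:88674772-88685015, minus strand), the ETS factor that red pulp macrophages require, had 74.2 CPM in the control cells against 12.6 in the other C1q cells, and 383 CPM in the KO cells against 178. The ratios were 5.87 (3.40-9.54) in control and 2.16 (1.98-2.34) in KO. *Il18bp* (chr7:102014885-102018690, minus strand), which encodes the secreted decoy of interleukin 18, had 90.7 CPM against 39.6 in control, a ratio of 2.29 (1.42-3.504), and 274 against 98.3 in KO, a ratio of 2.78 (2.51-3.08). Both markers passed the rule of size in both libraries, although *Il18bp* in control dropped to 1.99 (1.13-3.26) without the cell that held most of its UMIs.

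Neither marker was restricted to cells that passed both limits. When the C1q cells were split by the *Slc40a1* limit and by a *Vcam1* UMI, *Spic* in control fell from 74.2 CPM in cells with both to 37.9 with *Slc40a1* alone, 23.0 with *Vcam1* alone and 9.96 with neither. In KO the order was the same, at 383, 295, 248 and 113 CPM. *Il18bp* in control stood at 90.7, 79.3, 67.0 and 33.1 CPM in this order of classes, and in KO it went from 274 CPM with both through 183 and 176 to 44.2 with neither. *Spic* in KO cells with neither, at 113 CPM, was thus above *Spic* in the control *Slc40a1* *Vcam1* macrophages.

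**Figure D2:**
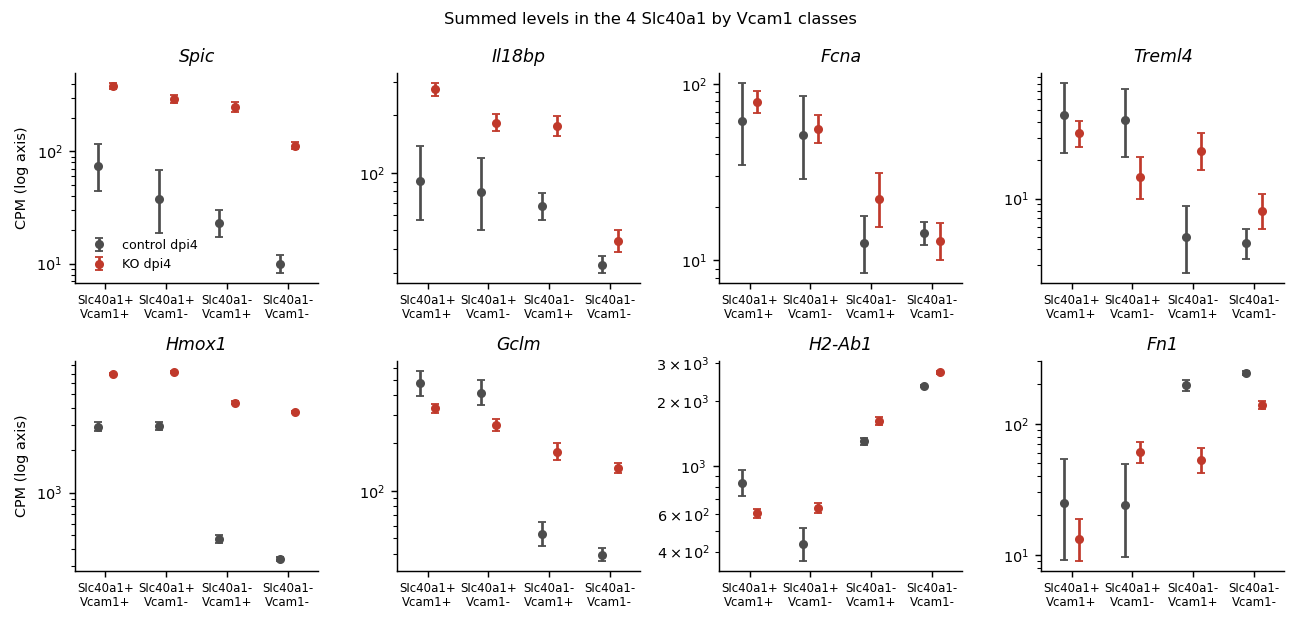
Levels of 8 genes (CPM, log axis) in C1q cells split by the *Slc40a1* limit and by a *Vcam1* UMI, in the control and KO dpi4 libraries; bars are 95% Poisson intervals. *Spic* runs from 9.96 to 74.2 CPM in control and from 113 to 383 in KO across the classes, while *Fn1* is lowest in cells over the *Slc40a1* limit in control.

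At the level of cells, *Spic* UMIs were found in 7 of 14 control and 156 of 173 KO cells and *Il18bp* UMIs in 7 of 14 and 121 of 173. Both were found in 4 control and 115 KO cells, and neither in 4 and 11. With every cell thinned to 5000 UMIs, *Spic* was detected in 23.1% of the control and 77.2% of the KO cells, against 5.94% and 43.4% of the other C1q cells. T and NK cells, which should lack *Spic*, gave 0 of 38 thinned cells in control and 5.26% of 57 in KO. For *Il18bp* the thinned shares were 23.1% and 51.5% in the *Slc40a1* *Vcam1* macrophages, 15.4% and 25.3% in the other C1q cells, and 2.63% and 3.51% in T and NK cells.

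How *Vcam1* went with *Slc40a1*, both genes of the rule, is given as a description. Among cells that met the limits on *Gpnmb*, interferon genes and cell cycle, a *Vcam1* UMI was present in 14 of 30 (46.7%) over the *Slc40a1* limit and 129 of 1084 (11.9%) under it in control. In KO it was present in 173 of 348 (49.7%) and 120 of 604 (19.9%). After thinning to 5000 UMIs the shares were 28.6% and 8.62% in control and 44.1% and 14.2% in KO, with a *Vcam1* UMI in 2.63% of 38 thinned T and NK cells in control and 0 of 57 in KO.

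The 10 genes highest in both libraries are given here, *Fcna* at their head. *Fcna* (chr2:25624666-25628030, minus strand), which encodes the lectin ficolin A, had 61.9 CPM against 14.7 in control and 79.8 against 24.3 in KO, with ratios of 4.21 (2.31-7.10) and 3.28 (2.68-4.01). *Treml4*, a receptor for dead cells that is carried by red pulp macrophages, had 45.4 against 5.26 in control and 32.4 against 12.2 in KO. *Gdf15*, a secreted member of the TGF-beta family, had 1443 CPM against 442 in control and 1151 against 487 in KO, ratios of 3.27 (2.93-3.64) and 2.36 (2.25-2.48). Every control cell held *Gdf15* UMIs, as did 141 of the 173 KO cells.

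The other genes in the 10 highest by the smaller of both ratios included enzymes. *Mmp13*, a collagenase, had 177 CPM against 8.61 in control and 69.1 against 27.0 in KO. *Ptgs1*, the constitutive cyclooxygenase, had 82.5 against 31.5 and 117 against 44.1. The phosphodiesterase gene *Gdpd1* had 124 against 44.0 and 125 against 48.7, and the adenylyl cyclase gene *Adcy3* had 49.5 against 19.5 and 65.7 against 22.2. The remaining genes were *Lrrc14b*, *A530064D06Rik* and *Jade2*, at 57.7, 20.6 and 37.1 CPM in the control cells and 20.1, 13.2 and 29.9 in the KO cells.

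With 14 control cells, a few cells set several of these values. A single cell held 60% of the control *Fcna* UMIs, 64% of those of *Treml4* and 86% of those of *Lrrc14b*, and without it the control ratios were 1.90 (0.690-4.21), 3.46 (0.921-9.24) and 3.64 (0.425-14.2). *Mmp13* stayed at 13.02 and *Gdf15* at 2.76 without their top cell. Of the 10 genes, 4 (*A530064D06Rik*, *Gdpd1*, *Mmp13* and *Gdf15*) stayed past the rule in control without their top cell. The KO values rest on 173 cells, and *Fcna* UMIs were spread there over 74 cells and *Treml4* UMIs over 40.

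**Figure D3:**
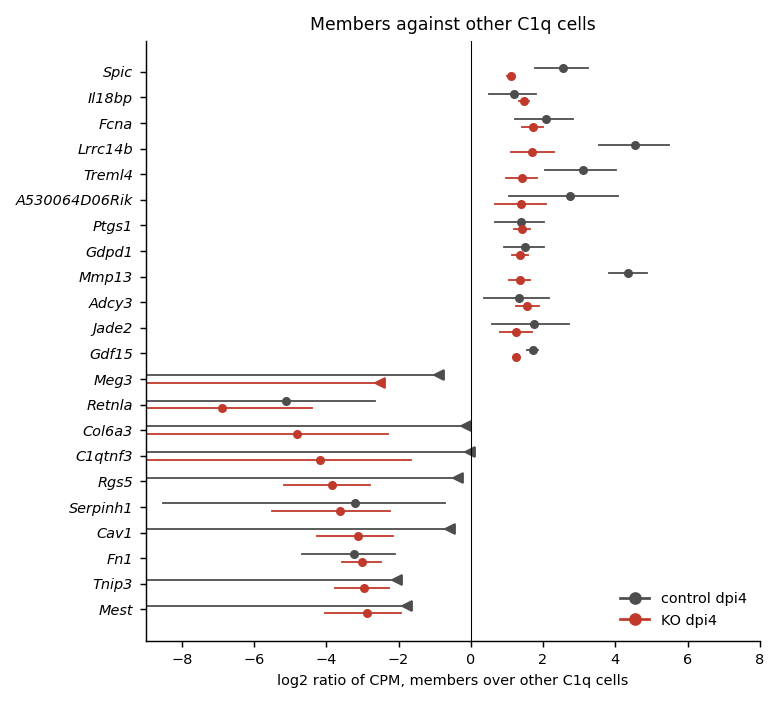
Log2 ratio of *Slc40a1* *Vcam1* macrophages over other C1q cells in the control and KO dpi4 libraries for *Spic*, *Il18bp* and the 10 highest and 10 lowest genes by the rule for both libraries; bars are 95% intervals and arrowheads upper bounds where the cells held 0 UMIs. The KO intervals are short (*Spic* 1.98-2.34 as a ratio), while the control intervals of *Fcna* and *Treml4* span more than a doubling.

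The genes lower in both libraries were of another make-up. *Fn1*, which encodes fibronectin, had 24.7 CPM against 233 in control and 13.2 against 106 in KO, with ratios of 0.106 (0.0390-0.232) and 0.124 (0.0841-0.178). *Tnip3*, an inhibitor of NF-kappaB signalling, had no UMI in the control cells against 62.4 CPM, and 7.25 CPM against 56.3 in KO. *Retnla*, which encodes a secreted product of alternatively activated macrophages, had 1 UMI in each library's cells, against 144 and 50.6 CPM in the other C1q cells. Its ratios were 0.0287 (0.000726-0.160) and 0.00844 (0.000213-0.0473). In the comparator these *Retnla* UMIs came from 42 of 1100 control and 12 of 779 KO cells.

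The imprinted genes *Meg3* and *Mest* and the stromal, mural and endothelial genes *Col6a3*, *C1qtnf3*, *Rgs5*, *Serpinh1* and *Cav1* made up the rest of the 10 lowest. *Col6a3*, *C1qtnf3*, *Rgs5* and *Cav1* had no UMI in the control cells, which at the floor bounds them at only 1.35-, 1.26-, 1.59- and 1.86-fold lower there. *Meg3* had no UMI in either library's cells, at least 2.29-fold lower in control and 7.18-fold in KO at the floor of 3 UMIs. *Mest* had none in control, at least 4.22-fold lower, and 3.84 CPM against 28.4 in KO. These transcripts sat in a few comparator cells: *Col6a3* in 36 of 1100 control and 16 of 779 KO cells, and *Meg3* in 21 and 8. When the C1q limit was raised to 40 UMIs per 10000 on both sides, an alternative added after the values were seen, 13 genes were higher and 32 lower in both libraries, and of the 10 lowest genes *Fn1*, *Tnip3* and *Mest* still passed, as did 8 of the 10 highest (not *Lrrc14b* or *A530064D06Rik*). Some of the other settings kept fewer of the 10 highest genes past the rule in both libraries. With thinning to 5000 UMIs, 3 of the 10 highest (*Gdpd1*, *Jade2* and *Gdf15*) and 0 of the 10 lowest still passed. With all other C1q cells as comparator, 3 of the highest (*Fcna*, *Treml4* and *Ptgs1*) and 8 of the lowest did, and with a *Slc40a1* limit of 10 UMIs per 10000, 4 of each (*Fcna*, *Treml4*, *Mmp13* and *Adcy3*, and *Retnla*, *Fn1*, *Tnip3* and *Mest*).

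Markers of other cell types were at or below the level of the other C1q cells. The summed level of T and NK markers was 16.5 CPM against 76.6 in control and 23.9 against 185 in KO, and *Cd3e*, *Cd3g*, *Cd2*, *Nkg7* and *Ncr1* were at 0 in the *Slc40a1* *Vcam1* macrophages of both libraries. Red cell markers, which would accompany attached or ingested erythroblasts, summed to 0 against 2.46 CPM in control and 2.13 against 6.503 in KO, with *Alas2* and *Slc4a1* at 0. Endothelial markers, of interest because endothelium also carries VCAM1, summed to 12.4 against 42.1 CPM in control and 22.2 against 79.1 in KO. The sums for neutrophils were 82.5 against 443 and 114 against 191, for dendritic cells 0 against 81.5 and 31.1 against 86.5, and for B cells 20.6 against 23.8 and 18.3 against 27.4. Fibroblast markers gave 165 against 644 and 146 against 357, satellite cell and muscle markers 53.6 against 145 and 49.1 against 53.0, and cell-cycle genes 28.9 against 44.7 and 25.2 against 39.1. By gene, the calls of higher and lower in control were 0 and 2 of 6 neutrophil genes, 0 and 3 of 5 dendritic, 0 and 1 of 4 T and NK, 0 and 0 of 4 endothelial, 0 and 3 of 6 fibroblast, 0 and 1 of 7 muscle, 0 and 0 of 2 cell-cycle, and 0 and 0 of 1 B cell gene. In KO they were 0 and 4 of 5, 0 and 3 of 5, 0 and 3 of 3, 0 and 4 of 5, 0 and 3 of 4, 0 and 1 of 3, 0 and 1 of 2, and 0 and 0 of 1. No red cell gene had enough UMIs. Over all genes 2.66% were higher and 2.53% lower in control, and 1.02% and 3.90% in KO. The 3 dendritic genes called lower in control (*Cd209a*, *Fscn1* and *Klrd1*) had 0 UMIs there and were bounded at only 1.77-, 1.29- and 1.70-fold. No marker of these lists was thus called higher; the part of the comparator's other transcripts in the lower calls was tested only through the stricter C1q limit above.

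Of 7 monocyte markers tested, 4 were lower in control (*Ly6c2*, *Chil3*, *Plac8* and *Ccr2*) and 5 in KO (*Ly6c2*, *Vcan*, *Plac8* and *Ccr2* among them), and none was higher, where 2.53% and 3.90% of all genes were lower. *Ccr2*, the receptor that brings monocytes out of the marrow, had 66.0 CPM against 569 in control and 111 against 560 in KO. Of the complement list beyond C1q, *C4b* was at 0 in control and called lower, and in KO *C4b* (34.1 against 16.2 CPM) and *Vsig4* (26.9 against 2.69, from 6 of 173 cells) were higher among 10 tested. Over all genes 2.53% were lower in control and 1.02% higher in KO. In all 30 control cells over the *Slc40a1* limit, the ratio of *C4b* over the rest was 0.851 (0.449-1.47).

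Of the genes of MHC class II presentation, most were lower in both libraries, 6 of 9 tested in control and 7 of 9 in KO, with none higher, where 2.53% and 3.90% of all genes were lower. The median log2 ratio of the list was -1.24 in control and -1.67 in KO, beside -0.115 and -0.018 over all genes tested. *Cd74*, the invariant chain, had 1913 CPM against 4322 in control and 1111 against 3540 in KO, with ratios of 0.443 and 0.314 (0.301-0.327). Without its top cell the control value was 787 CPM, a ratio of 0.182. *H2-Ab1*, a chain of the I-A molecule, had 837 CPM against 2147 in control, where a single cell held 140 of 203 UMIs and the rest gave 310 CPM. In KO it had 602 against 2065 CPM, a ratio of 0.292 (0.276-0.308). Per cell, the 4 genes *Cd74*, *H2-Aa*, *H2-Ab1* and *H2-Eb1* summed to a median of 5.31 UMIs per 10000 in the control cells against 42.9 in the other C1q cells, and 2.67 against 11.7 in KO. Cells with *Slc40a1* but no *Vcam1* UMI had medians of 4.32 and 2.12, so this was not particular to cells that also held *Vcam1*.

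Of 9 red pulp macrophage genes tested, 2 of them (*Spic* and *Il18bp*) the listed markers, 3 were higher and 1 lower in control, and 4 were higher and none lower in KO, with median log2 ratios of 0.447 and 0.919. Over all genes tested, 2.66% were higher in control and 1.02% in KO. Without the top control cell of each gene, *Spic* alone of the 3 stayed past the rule in control (4.98, 2.67-8.57). *Spic*, *Il18bp* and *Treml4* were higher in both, and *Cd5l*, a secreted scavenger protein, was higher in KO (30.3 against 12.6 CPM, 2.41-fold, but lower, at a log2 ratio of -1.16, against all other C1q cells including those with *Gpnmb*). The lower gene was *Cd163*, the receptor for hemoglobin bound to haptoglobin, a hallmark of red pulp macrophages. It had 1 UMI in the control cells (4.12 CPM) against 24.7 CPM, a ratio of 0.167 (0.00421-0.934), and 15.4 against 23.0 CPM in KO, a ratio of 0.668. *Kel* and *Clec4f* were at 0. *Axl*, a receptor of dying cells, had 210 against 154 CPM in control and 408 against 246 in KO, short of a 2-fold difference.

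Of 9 genes of heme handling tested, 3 were higher and 1 lower in control, where 2.66% of all genes were higher and 2.53% lower, and none was called in KO. The KO comparator held more cells over the *Slc40a1* limit than the control one, as given above. The difference between the libraries was not tested. *Hmox1* (chr8:75093621-75100589, plus strand) had 2940 CPM in the control cells against 410, a ratio of 7.18 (6.63-7.76), and 6913 in the KO cells against 4646, a ratio of 1.49 (1.46-1.52). *Slc48a1*, which encodes the heme transporter HRG1 of the phagolysosome, had 384 against 85.05 CPM in control (4.51, 3.61-5.57) and 600 against 413 in KO (1.45). *Blvrb*, a biliverdin reductase, had 709 against 232 in control (3.06, 2.61-3.56) and 421 against 279 in KO (1.51). These were the 3 higher heme genes in control, all of which stayed higher without their top cell, and *Cd163* was the lower one.

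Few iron genes passed the rule, and the ferritin genes did not. *Fth1*, the ferritin heavy chain, had 19331 CPM against 10516 in control and 25863 against 24989 in KO. The light chain gene *Ftl1* had 16593 against 9756 in control and 13227 against 13050.5 in KO. Of 15 tested, *Slc11a1* (NRAMP1, which moves metal out of the phagosome, 322 against 150 CPM) and *Slc39a8* (a metal importer, 20.6 against 4.51 CPM) were higher in control, and only *Slc39a14* was called in KO, lower at 5.97 against 12.1 CPM. Over all genes 2.66% were higher in control and 3.90% lower in KO, a share that 1 call of 15 is close to. The 2 control calls were not checked without their top cell. *Tfrc*, the transferrin receptor, had 20.6 against 27.6 CPM in control and 28.6 against 37.2 in KO. *Hmox1* UMIs were also found in 7.89% of 38 thinned T and NK cells in control and 61.4% of 57 in KO, against 53.1% and 95.1% of the other C1q cells and 84.6% and 100% of the *Slc40a1* *Vcam1* macrophages, and the part of free RNA in the KO levels was not tested.

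Of 20 NRF2 and BACH1 target genes tested, 13 were higher and none lower in control, where 2.66% of all genes were higher and 2.53% lower, with a median log2 ratio of 1.75. In KO none was higher and 1 (*Srxn1*) lower, where 1.02% and 3.90% of all genes were, with a median of 0.031. The comparators were unlike, with 16 of 1100 cells over the *Slc40a1* limit in control and 175 of 779 in KO. The difference between the libraries was not tested. *Gclm*, the regulatory part of glutamate-cysteine ligase in glutathione synthesis, had 478 CPM against 49.3 in control, a ratio of 9.70 (7.91-11.8), and 331 against 173 in KO, a ratio of 1.91. *Prdx1*, a peroxidase of the thioredoxin system, had 2878 against 844 in control, 3.41 (3.16-3.68), and 1172 against 1301 in KO, 0.901. *Txnrd1*, thioredoxin reductase, had 388 against 81.7 in control, 4.74-fold, and 132 against 138 in KO, and *Srxn1*, which repairs oxidised peroxiredoxin, had 66.0 against 19.9 in control, 3.32-fold, and 15.4 against 34.7 in KO, a ratio of 0.443 (0.305-0.627). The other higher genes in control were *Gclc*, *Slc7a11*, *Gsr*, *Cat*, *Gstm1*, *Osgin1*, *G6pdx* and *Pgd*, which serve glutathione, peroxide and NADPH metabolism. *Nqo1*, a common reporter of NRF2, was at 0 in these cells of both libraries. Of the BACH, NRF2 and small MAF factors themselves, *Keap1* was the only one of 8 called in control (higher, 74.2 against 36.1 CPM) and none was called in KO.

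In the control library 1 cell held 48% of the *Hmox1* UMIs and 58% of those of *Gclm*. Without the top cell of each gene, 8 of the 13 stayed past the rule (*Hmox1* at 4.12, *Gclm* at 4.53, *Slc7a11*, *Txnrd1*, *Prdx1*, *Gsr*, *Cat* and *Gstm1*). Summed over 21 target genes, the 14 control cells ranged from 11.4 to 388 UMIs per 10000 with a median of 51.3, and 6 of them exceeded the 95th percentile of the other C1q cells, 60.7, whose median was 23.3. The control cells with *Slc40a1* but no *Vcam1* UMI had a median of 63.8, with 8 of 16 over that percentile. Control cells with *Vcam1* alone, at 23.1, had the level of cells with neither, 23.2. In the 22 control cells left out for *Gpnmb* alone, which also met both limits, the median was 34.3, with 7 over the percentile. The sum varied widely within the 14 control *Slc40a1* *Vcam1* macrophages, of which 4 lay between 11.4 and 24.5.

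In KO the same sum had a median of 101.1 in the *Slc40a1* *Vcam1* macrophages (33.5-238 over cells), 106.6 with *Slc40a1* alone, 74.6 with *Vcam1* alone and 57.3 with neither. Most of that difference was *Hmox1*: without it the KO medians were 36.5 in the *Slc40a1* *Vcam1* macrophages and 33.6 in the other C1q cells, against 47.3 and 21.5 in control. All 30 control cells over the *Slc40a1* limit, pooled after the values were seen, gave ratios over the rest of 8.23 (7.78-8.72) for *Hmox1*, 10.6 (9.11-12.4) for *Gclm* and 4.49 (2.92-6.67) for *Spic*.

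**Figure D4:**
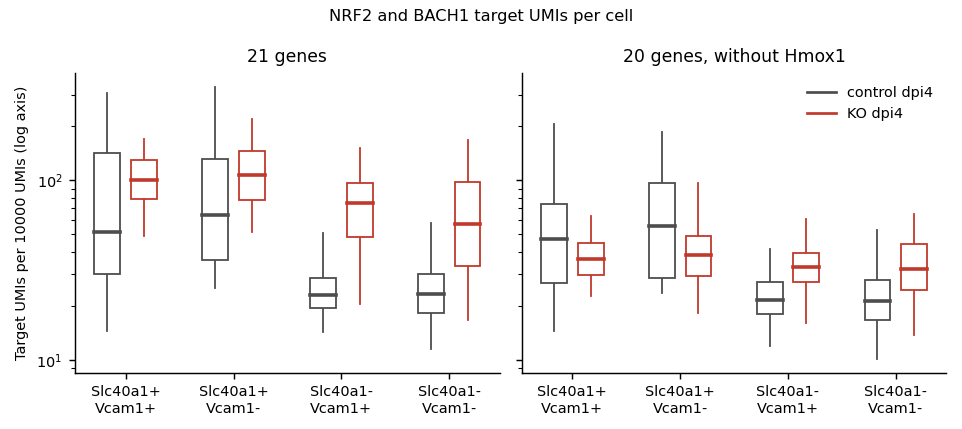
Sum of 21 NRF2 and BACH1 target genes per cell, and of 20 without *Hmox1* (UMIs per 10000, log axis), in C1q cells split by the *Slc40a1* limit and a *Vcam1* UMI, in both dpi4 libraries; lines are medians, boxes quartiles and whiskers the 5th to 95th percentiles. In control the classes over the *Slc40a1* limit lie highest (medians of 51.3 and 63.8 against 23.1 and 23.2), and in KO the median without *Hmox1* is 36.5 in the *Slc40a1* *Vcam1* macrophages.

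The promoters of these targets are shown because BACH1 and NRF2 act through the antioxidant response element. The 250 bases before the start site were taken from RefSeq (GRCm38.p6) for 50 of 60 genes searched, and read on both strands for TGACNNNGC, the core of that element, and TGANTCA, the AP-1 type core that MAF heterodimers also bind. The 2 can overlap. TGACNNNGC was found in 10.2% of all 32851 promoters of this length and TGANTCA in 6.75%. A match is a description of the letters only. Capitals mark the matches, in *Gclm* (chr3:122245307-122245556, plus strand, 134 bases before the start), *Prdx1* (chr4:116685349-116685598, plus strand, at 237 bases and as overlapping matches at 133 and 131 bases), *Srxn1* (chr2:152105274-152105523, plus strand, at 102 and 45 bases) and the match-bearing promoter of the 3 of *Txnrd1* (chr10:82858956-82859205, plus strand, at 92 bases). Of the 50 genes, 9 had a match. Of the 13 targets called higher in control, 10 were in the table: 6 had a match (these 4, *Osgin1* and *G6pdx*), and *Slc7a11*, *Cat*, *Gstm1* and *Pgd* had none. The window of *Spic* held neither motif. *Slc40a1*, *Vcam1*, *Hmox1*, *Gclc* and *Gsr* were not among the 50.
Gclm: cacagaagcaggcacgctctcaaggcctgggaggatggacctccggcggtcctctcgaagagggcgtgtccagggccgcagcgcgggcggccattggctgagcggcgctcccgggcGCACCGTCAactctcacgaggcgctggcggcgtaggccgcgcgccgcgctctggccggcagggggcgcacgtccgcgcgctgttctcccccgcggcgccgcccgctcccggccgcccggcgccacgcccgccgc
Prdx1: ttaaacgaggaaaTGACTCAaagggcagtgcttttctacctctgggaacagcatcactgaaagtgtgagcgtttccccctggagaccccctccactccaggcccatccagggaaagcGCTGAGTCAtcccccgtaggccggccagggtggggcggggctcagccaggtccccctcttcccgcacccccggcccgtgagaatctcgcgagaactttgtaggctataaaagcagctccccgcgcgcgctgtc
Srxn1: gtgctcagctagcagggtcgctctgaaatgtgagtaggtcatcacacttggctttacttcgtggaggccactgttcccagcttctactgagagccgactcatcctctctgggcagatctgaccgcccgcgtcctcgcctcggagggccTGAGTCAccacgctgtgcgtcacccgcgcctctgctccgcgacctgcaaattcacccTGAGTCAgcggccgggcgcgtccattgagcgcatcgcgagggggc
Txnrd1: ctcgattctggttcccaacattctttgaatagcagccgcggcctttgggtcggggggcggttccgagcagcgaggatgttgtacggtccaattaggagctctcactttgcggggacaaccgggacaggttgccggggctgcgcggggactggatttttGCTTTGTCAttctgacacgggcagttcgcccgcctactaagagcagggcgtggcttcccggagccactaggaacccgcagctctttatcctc

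The counts of the remaining lists are read beside shares over all genes of 2.66% higher and 2.53% lower in control and 1.02% and 3.90% in KO, to which several of them are close. In control and KO respectively, the calls of higher and lower were 0 and 0, then 0 and 0, for lysosome genes (14 and 13 tested); 0 and 0, then 0 and 1, for VCAM1 partners and integrins (13 each, *Itgb7* lower); 1 and 1, then 1 and 0, for efferocytosis genes (14 and 15; *Cd36* and *Cd163*, then *Mertk*); 2 and 1, then 0 and 2, for lipid-handling genes (15 each; *Cd36* and *Lipa* higher and *Mmp12* lower, then *Fabp4* and *Mmp12*). The transcription factors of macrophage lineages gave *Spic* higher and *Id3* lower in control and *Spic* higher in KO, of 16. Resident-like genes gave *Fcna* higher and *Cbr2* lower of 10 in control and *Fcna* higher of 9 in KO. For the pro-inflammatory list, *Cxcl1* was higher (1.35, 0.879-1.99 without its top cell) and *Il1b* and *Cd14* lower of 16 in control, and *Irg1* was lower of 15 in KO. Interferon-stimulated genes, some of which the rule limits, gave *Irf7* and *Stat2* lower in control and *Isg15* and *Isg20* lower in KO, of 14. The genes of the study's states MF1 and MF2 gave no call in either library, and those of MF3 gave all 3 tested, *Gdf15*, *Igf1* and *Cd36*, higher in control (median log2 ratio 1.30) and *Gdf15* in KO.

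Among repair factors, *Igf1*, which encodes a growth factor for muscle fibres, had 771 CPM against 347 in control (2.22-fold) and 1028 against 562 in KO (1.83-fold). With *Gdf15* it was higher in control, where *Retnla* and *Vegfa* were called lower, of 14 tested, *Vegfa* from 0 UMIs and bounded at only 1.77-fold. In KO *Gdf15* was higher and *Retnla* lower of 13. In the IL-18 and IL-1 family, *Il1b* had 107 CPM against 896 in control (0.120) and 378 against 656 in KO (0.577), and *Il18bp* was higher and *Il1b* lower of 11 tested in control. In KO *Il18bp* and *Il1a* were higher of 10, with *Il1a* at 42.2 against 13.01 CPM, a ratio of 3.25 (2.46-4.28).

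Between libraries, the KO *Slc40a1* *Vcam1* macrophages had 232 genes higher (4.06%) and 91 lower (1.59%) than the control ones, of 5721 tested. With ratios centred on the median, 181 were higher and 119 lower, 60.3% higher in place of 71.8%. *Bach1* (chr16:87698945-87733346, plus strand) itself had 322 CPM in control and 289 in KO, a ratio of 0.900 (0.711-1.15); the floxed exon 4 (chr16:87722402-87722608) is not the last exon of the coding transcript, exon 5 (chr16:87729437-87733346), and 3′ counts per gene do not show which exon was read, so this count does not check the deletion. *Lyz2* (chr10:117277331-117282321, minus strand), where the Cre sits, had 15747 CPM in control and 21.3 in KO, and 0.00124 times the control level in the other C1q cells. *Lyz1* went from 16.5 to 535 CPM and is near-identical to *Lyz2*, so that its count is uncertain.

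*Spic* and *Il18bp* were higher in KO than in control cells, by 5.16 (3.24-8.74) and 3.02 (1.97-4.85). The same ratios in the other C1q cells, with all classes pooled, were 14.0 and 2.48, so the pooled KO over control ratio of *Spic* was larger outside the rule than inside it. Cells over the *Slc40a1* limit were 16 of 1100 in the control pool and 175 of 779 in the KO pool. The pooled ratio thus also holds this difference in make-up, as does each ratio in the other C1q cells below. *Hmox1* was 2.35 (2.18-2.54) times the control level in the *Slc40a1* *Vcam1* macrophages and 11.3 times in the other C1q cells. For the NRF2 and BACH1 targets, 1 of 20 (*Hmox1*) was higher and 7 (*Txnrd1*, *Srxn1*, *Slc7a11*, *Prdx1*, *Gsr*, *Cat* and *Gstm1*) lower in KO *Slc40a1* *Vcam1* macrophages. Over all genes 4.06% were higher and 1.59% lower. The median log2 ratio was -0.601 beside 0.092 for all genes. The rule selects on *Slc40a1*, itself a known target, and its limit was met by 3.66% of control and 45.2% of KO C1q cells. The 2 groups are thus unlike parts of their libraries, and the part of this in the lower targets was not tested. In the other C1q cells the same list of targets had 4 higher (*Hmox1*, *Gclm*, *Gclc* and *Fth1*) and none lower, with a median of 0.607. Of all 10543 genes tested there, 161 were higher and 206 lower, with a median of 0.066. *Prdx1* went from 2878 to 1172 CPM, a ratio of 0.407, in the *Slc40a1* *Vcam1* macrophages, and was 1.54 times the control level in the other C1q cells. The control side of these ratios rests on 14 cells: without its top control cell, each of the 7 lower targets left the 2-fold rule, at ratios from 0.554 (*Prdx1*) to 0.802 (*Gstm1*), and *Hmox1* became 4.10 (3.70-4.56).

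The counts of the next lists stand beside 4.06% of all genes higher and 1.59% lower in KO. Among these lists, 2 of 7 heme genes (*Hmox1* and *Hebp1*) were higher in KO, and *Hebp1*, a heme-binding protein, went from 94.8 to 224 CPM (2.37, 1.56-3.77). Red pulp genes gave 3 higher of 8 (*Spic*, *Il18bp* and *Hebp1*), and iron genes none of 10. *Il1b* went from 107 to 378 CPM (3.53, 2.39-5.43), whereas its ratio in the other C1q cells was 0.731. *Il18* went from 28.9 to 81.9 CPM (2.84, 1.35-7.15), and with *Il18bp* and *Il1a* this made 4 of 9 tested genes of the IL-18 and IL-1 family higher and none lower. Monocyte markers had 3 of 5 higher (*Ly6c2*, *Chil3* and *Plac8*), of which *Ly6c2* went from 1 UMI (4.12 CPM) to 48.2 CPM (11.7, 2.06-466) and *Plac8* from 8.25 to 67.4 CPM (8.18, 2.23-68.1). No MHC class II gene was called of 7, although the ratio of *Cd74*, 0.581, became 1.41 (1.20-1.67) without its top control cell, and no macrophage state gene of MF1, MF2 or MF3.

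Other genes high in KO rested on few control UMIs. *Epb41l3*, *Calu*, *Il1a*, *Megf9*, *Napg* and *Gm1673* had 1 control UMI each, with ratios of 13.1 (2.32-523), 10.6 (1.85-421), 10.2 (1.80-409), 9.31 (1.63-372), 8.38 (1.46-335) and 8.28 (1.44-331). *H2-Q7*, at 9.37 (2.56-77.9), belongs to a family of near-identical genes. Among the genes lowest in KO after *Lyz2* were *Ptgr1* (0.180), *Srxn1*, *Cxcl1* (0.236), *Zfp318* (0.266), *Clec4d* (0.269), *Cd81* (0.270), *Rnf128* (0.295) and *Supt5* (0.298). *Ptgr1*, a reductase, had 78.4 CPM in control with 79% in a single cell, without which its ratio was 0.772, and *Clec4d* and *Cd81* each came to 0.487 and *Rnf128* to 0.693 without theirs. *Supt5*, a transcription elongation factor, had 351 CPM in 12 of 14 control cells and 105 in KO, against a ratio of 0.834 in the other C1q cells.

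The counts of the remaining lists are read beside 4.06% of all genes higher and 1.59% lower in KO, to which several of them are close. The calls of KO over control, higher and lower, were 1 and 0 for repair factors (*Vegfa*, of 12, bounded at only 1.79-fold), 1 and 2 for pro-inflammatory genes (*Il1b* higher, *Ptgs2* and *Cxcl1* lower, of 13), 2 and 0 for interferon-stimulated genes (*Irf7* and *Stat2*, of 9), 3 and 1 for lineage factors (*Spic*, *Rxra* and *Tfec* higher and *Klf2* lower) and 2 and 0 for lipid-handling genes (*Lpl* and *Abcg1*, of 13). They were 1 and 1 for resident-like genes (*Cbr2* higher and *Folr2* lower, of 9), 2 and 0 for complement genes (*C4b* and *Vsig4*, of 9), 1 and 0 for integrins (*Itgal*, of 11), 0 and 1 for the BACH, NRF2 and MAF factors (*Keap1*, 0.443), 1 and 0 of 2 neutrophil genes (*S100a8*), and 0 and 0 for lysosome genes (of 13) and efferocytosis genes (of 13).

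Within the 173 KO cells, several genes that the rule did not use differed with the *Slc40a1* level. The cells were split at 10 and 20 *Slc40a1* UMIs per 10000 into 55, 75 and 43 cells, with medians of 12336, 13441 and 13273 UMIs. *Vcam1*, itself a gene of the rule, stood at 531, 540 and 1202 CPM. *Spic* stood at 327 (288-371), 361 (325-400) and 495 (439-556). *Fcna* rose from 34.6 (22.6-50.7) through 84.95 (68.0-105) to 130 (102-164) CPM. *Cd163* stood at 6.65, 9.76 and 37.0 CPM, from 5, 10 and 21 UMIs, with a UMI in 8.67% of the 173 cells. *Spic* and *Fcna* were highest in the KO cells with the most ferroportin transcript.

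Both MHC class II genes examined had the opposite order. *Cd74* fell from 1564 through 1205 to 340 CPM and *H2-Ab1* from 858 through 621 to 229. Of the monocyte genes, *Ly6c2* stood at 70.5, 49.8 and 15.9 CPM and *Plac8* at 65.2, 85.9 and 37.0. The range over the classes was smaller for others: *Hmox1* stood at 6230, 6614 and 8360 CPM, *Gclm* at 335, 313 and 358, and *Gdf15* at 1140, 1243 and 999. In control, where 10 cells fell in the lowest class, 4 in the middle and none above, *Hmox1* stood at 1141 and 6183 CPM, *Gclm* at 173 and 1029 and *Vcam1* at 308 and 104. The KO classes share a library, are cut on a gene of the rule and are given as a description, and their intervals leave out the spread between cells.

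**Figure D5:**
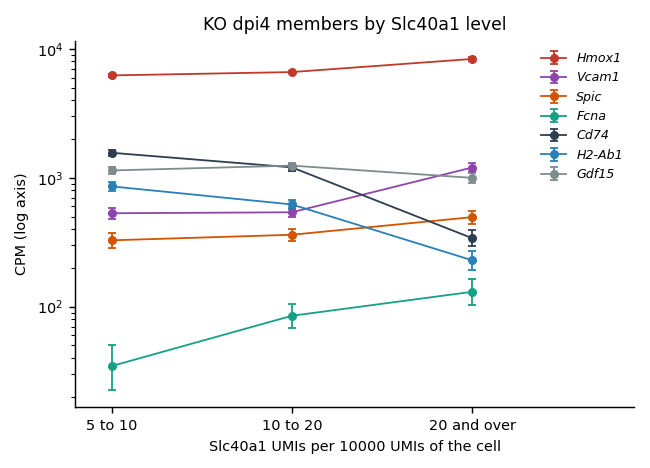
Levels of 7 genes (CPM, log axis) in the KO *Slc40a1* *Vcam1* macrophages split by *Slc40a1* at 5 to 10, 10 to 20 and 20 or more UMIs per 10000 (55, 75 and 43 cells); bars are 95% Poisson intervals. *Spic* and *Fcna* rise over the classes, as does *Hmox1* over a smaller range (6230 to 8360 CPM). *Cd74* and *H2-Ab1* fall (1564 to 340 CPM for *Cd74*), and *Gdf15* has no steady order.

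The *Gpnmb* limit parted the *Slc40a1* *Vcam1* cells of KO into cells of different content. The 224 KO cells left out for *Gpnmb* alone had a median of 19032 UMIs, and relative to them the 173 cells had 109 genes higher (1.34%) and 85 lower (1.04%) of 8147 tested. *Slc40a1* (1615 against 1566 CPM) and *Spic* (383 against 351, 1.09-fold) were alike, and *Vcam1* stood at 697 against 290. Lower in the 173 cells were *Spp1*, which encodes osteopontin (1304 against 7925 CPM, 0.164), *Fabp5*, a fatty acid carrier (814 against 2958, 0.275), and *Ctsd*, a lysosomal protease (5670 against 12142, 0.467). *Il18bp* stood at 274 against 408 (0.671) and *Hmox1* at 6913 against 8809 (0.785), and the summed targets had a median of 135.0 UMIs per 10000 in the cells with *Gpnmb*.

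Several MHC class II genes were higher in the 173 cells. *Cd74* had 1111 against 336 CPM (3.302-fold) and *H2-Ab1* 602 against 204 (2.95-fold), and *Mrc1*, the mannose receptor, had 845 against 332 (2.54-fold). *C4b* was 5.80-fold higher. Of 13 iron genes, *Trf*, which encodes transferrin, was higher (2.09-fold) and *Tfrc* lower (0.361). Of 9 red pulp genes, *Cd163* was higher (2.61-fold) and *Cd5l* lower (30.3 against 137 CPM, 0.221). By list, MHC class II genes had 4 higher and none lower of 8, resident-like genes 2 (*Mrc1* and *Ccl24*) and none of 9, complement genes 4 and 1 of 10, monocyte markers 3 and none of 5, lipid-handling genes none and 6 of 15, and NRF2 and BACH1 targets none and 1 (*Txn1*) of 20.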

How the data were processed

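Raw UMI counts per gene and barcode were deposited for 4 libraries of single cells, with no normalization. Per the labels and the study's methods the authors made them with 10x Genomics 3′ chemistry and Cell Ranger 6.1.2 against mm10 (GRCm38). The annotation release is not given in the sources used here, and gene positions come from GENCODE on the same build. No cell annotation was used, and cells were taken by the limits given in the report. The cells and the gene lists (31 lists with 310 genes, of which 308 were in the files) were chosen with earlier results of these data known. Named are the markers, members of the lists, the 10 highest and 10 lowest genes past the rule of size in both libraries (by the smaller absolute log2 ratio) and the 10 highest and 10 lowest KO over control ratios, except a few genes that are not reported here.

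Each class of cells was summed gene by gene and divided by its total over all genes. Levels have exact Poisson, ratios exact conditional binomial and shares exact Clopper-Pearson intervals at 95%, for counting error only, and a count of 0 was set to a floor of 3 UMIs per class for folds. With 1 library per group no test between conditions was possible. Detection was compared after thinning each cell to 5000 UMIs (seed 1), leaving out shallower cells. T and NK cells had at least 3 UMIs of their markers and C1q under the limit. Doublets were not removed, and as an alternative the highest Scrublet scores (0.8% per 1000 cells) were. Python 3.11.15, numpy 2.4.6, scipy 1.17.1, pandas 2.3.3, scanpy 1.11.5 and matplotlib 3.10.9 were used, and the ratio and interval steps were tested on simulated data. Other limits, comparators, fold and UMI minimums, centring and leave-one-out of control cells were tried as alternatives.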

Additional observations from a re-analysis of the deposited data

Results flagged for a closer look

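In 7 genes the difference between *Slc40a1* *Vcam1* macrophages and other C1q cells passed the rule of size in opposite directions in the control and KO libraries. As log2 ratios in control and KO, these were 1.73 and -1.17 for *Srxn1*, 2.71 and -1.69 for *Ocstamp*, 1.58 and -1.08 for *Mdn1*, 1.72 and -1.03 for *Mogs*, 1.05 and -1.001 for *Clec4d*, and 1.56 and -1.77 for *Clec1a*. *C4b*, a complement gene, went the other way, at -1.23 with the control cells at the floor of 3 UMIs and 1.08 in KO. In all 30 control cells over the *Slc40a1* limit its ratio, not on the log scale, was 0.851 (0.449-1.47). The difference between the libraries was not tested, as each is 1 library. Without the control cell that held most of each gene's UMIs, the control ratios, not on the log scale, were 1.15 for *Srxn1*, 1.43 for *Ocstamp*, 2.04 (0.655-4.87) for *Mdn1*, 2.92 for *Mogs*, 1.15 for *Clec4d* and 1.66 for *Clec1a*.

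At dpi2, outside the libraries the cells were chosen from, the same rule found 0.344% of the KO C1q cells (4 of 1164) and none of 2252 in control, whose count of 0 allows up to 0.133%.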

How the results depend on the processing

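No paired analysis was possible because each group was 1 library. The share of C1q cells stayed above 4% in KO and below 1% in control in each setting tried. It was 7.31% in KO with a *Slc40a1* limit of 3 UMIs per 10000, 0.109% in control and 4.15% in KO with a limit of 10, 4.92% in KO with at least 2 *Vcam1* UMIs, 5.06% in KO with a mitochondrial limit of 5%, and 0.149% and 4.82% with every cell thinned to 5000 UMIs. Genes past the rule, 507 in control, 457 in KO and 323 in KO over control, became 775, 1078 and 578 at 1.5-fold. Thinning gave 227 in control and 92 in KO over control, and a minimum of 200 UMIs gave 158 in KO and 89 in KO over control. With all other C1q cells as comparator the KO count was 708, and with a C1q limit of 40 per 10000, chosen after seeing the data, 226. Leaving out each control cell in turn, also added after seeing the data, gave 477 to 548 in control and 309 to 353 in KO over control.

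The 21 higher and 74 lower genes of both libraries became 10 and 14 with thinning (5 and 13 of them shared), 35 and 85 with all other C1q cells as comparator (4 and 35 shared), 93 and 124 at 1.5-fold, and 13 and 32 with the C1q limit of 40 (13 and 31 shared). The log2 ratio reversed for *Mogs* in control (-0.31, limit of 10 for *Slc40a1*), *Clec1a* in control (-0.51, at least 2 *Vcam1* UMIs), *Rgs5* in KO (2.52, mitochondrial limit of 5%) and *Cd5l* in KO (-1.16, all other C1q cells as comparator). The first and second rest on 1 UMI in the control cells and the third on 6 against 5 UMIs, and the last comparator holds the *Gpnmb* cells, where *Cd5l* stood at 137 CPM. Of the other values of named genes, 822 kept direction and side of the rule under planned settings, 163 lost the call and 3 gained one, and 896 kept it and 86 lost it under settings added later. Removing the highest Scrublet scores took 0 of 14 and 5 of 173 cells. The 14 control cells limit every control value.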
